A study of Homo sapiens with 17 samples.

Results

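The genes described here encode 35 proteins of the postsynaptic side of the synapse. They were listed by name for their known roles: the MAGUK scaffolds DLG1, DLG2, DLG3 and DLG4, the scaffolds DLGAP1, DLGAP2, DLGAP3 and DLGAP4, SHANK1, SHANK2 and SHANK3, HOMER1, HOMER2 and HOMER3, the CaMKII subunits CAMK2A, CAMK2B, CAMK2D and CAMK2G, the CaMKII inhibitors CAMK2N1 and CAMK2N2, the neuroligins NLGN1, NLGN2 and NLGN3, the adhesion proteins LRRTM1, LRRTM2, LRRTM3 and LRRTM4 and SLITRK1 to SLITRK6, and ARC and TIAM1. The kinase subunits, the kinase inhibitors, ARC and TIAM1 are neither scaffolds nor adhesion proteins. All 35 were found among the 60199 gene symbols of the RNA table, and all 35 passed the filter on low counts that left 18614 genes for the comparison of genotypes.

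The samples were neurons at day 40 of differentiation from H9, an established human embryonic stem cell line. They were wild type (WT), or UTX-/- in 1 of 2 lines named KO1 and KO2, where UTX is the protein of the KDM6A gene. PolyA RNA was sequenced from 3 WT, 3 KO1 and 2 KO2 libraries, and ChIP was done for H3K27me3, H3K36me3 and a control in each line (9 samples). All groups had been plated as neural progenitors and matured in the same medium with BDNF, GDNF, dibutyryl cyclic AMP and ascorbic acid. The sources used here do not say whether KO1 and KO2 are single clones or where the gene was edited. The series text calls the RNA replicates biological but does not say whether the differentiations were separate. All p-values therefore set group differences against the spread between these libraries only, and do not reach beyond these lines and cultures.

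At an excitatory synapse, MAGUK, DLGAP, SHANK and HOMER proteins form stacked layers that hold glutamate receptors opposite the release site. CaMKII is a calcium-activated kinase of this density, and the CAMK2N proteins inhibit it. Neuroligins and LRRTM proteins bind presynaptic neurexins across the cleft, while SLITRK proteins bind presynaptic receptor phosphatases. UTX is a demethylase whose substrate is H3K27me3, the mark of Polycomb-repressed chromatin, and H3K36me3 marks the bodies of transcribed genes.

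Promoter sequence was matched by symbol in a RefSeq table (GRCh38.p14) for 28 of the 35 genes, which had 60 start sites between them. The 300-base windows (250 bases before and 50 after a start) held a median of 14 CpG dinucleotides over these 60 starts, and also 14 over all 35116 windows in the table. The first pair below is shown because the genes differ in H3K27me3: CAMK2N2 (chr3:184261504-184261803, minus strand) lay under peaks in both genotypes, and SLITRK2 (chrX:145817579-145817878, plus strand) had a peak near its start in the KO list but not in the WT list. Capitals mark CpG, of which CAMK2N2 had 33 and SLITRK2 had 10.
CAMK2N2: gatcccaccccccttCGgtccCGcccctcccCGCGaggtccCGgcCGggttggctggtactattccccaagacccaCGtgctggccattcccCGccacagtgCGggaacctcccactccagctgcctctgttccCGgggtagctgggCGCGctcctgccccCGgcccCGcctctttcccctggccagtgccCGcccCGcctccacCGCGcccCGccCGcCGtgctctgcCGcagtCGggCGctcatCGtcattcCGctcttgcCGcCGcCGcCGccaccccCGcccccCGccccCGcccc
SLITRK2: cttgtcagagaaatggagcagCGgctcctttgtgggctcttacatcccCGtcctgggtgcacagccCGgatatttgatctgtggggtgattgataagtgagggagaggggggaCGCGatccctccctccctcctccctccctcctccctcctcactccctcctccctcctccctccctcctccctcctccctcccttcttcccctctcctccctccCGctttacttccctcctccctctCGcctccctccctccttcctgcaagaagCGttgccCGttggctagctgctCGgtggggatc

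The other pair had no H3K27me3 peak in either list and gave the lowest and the highest fold change of the 35 genes: LRRTM2 (chr5:138875286-138875585, minus strand) and SLITRK6 (chr13:85799370-85799669, minus strand). In LRRTM2 capitals mark TGACGTCA, the cyclic AMP response element, which ends 43 bases before the start, and TATAAA on the opposite strand. In SLITRK6 capitals mark its 4 CpG. TGACGTCA, which is its own reverse complement, was in 2 of the 60 windows, the other being 1 of the 5 starts of DLG4, and in 1.85% of all windows. TATAAA, searched on both strands, was in 4 of the 60 windows and in 11.5% of all windows, and GGGCGG, searched on both strands, in 46.7% and 45%. The different motifs cannot overlap one another, since no end of one matches the beginning of another.
LRRTM2: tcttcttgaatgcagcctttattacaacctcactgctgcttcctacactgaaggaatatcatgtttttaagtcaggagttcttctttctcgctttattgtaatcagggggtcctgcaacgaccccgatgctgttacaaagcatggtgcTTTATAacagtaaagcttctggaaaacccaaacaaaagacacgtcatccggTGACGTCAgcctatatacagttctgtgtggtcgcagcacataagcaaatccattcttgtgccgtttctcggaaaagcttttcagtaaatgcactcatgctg
SLITRK6: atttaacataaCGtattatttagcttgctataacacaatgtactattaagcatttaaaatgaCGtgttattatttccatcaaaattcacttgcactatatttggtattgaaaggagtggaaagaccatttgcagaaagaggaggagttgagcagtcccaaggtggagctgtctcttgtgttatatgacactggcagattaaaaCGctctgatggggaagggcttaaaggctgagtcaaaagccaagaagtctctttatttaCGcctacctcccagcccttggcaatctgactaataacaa

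KDM6A itself was at 36, 35.9 and 35.2 CPM (counts-per-million, TMM-scaled) in WT, at 40.8, 30.1 and 34.1 CPM in KO1 and at 25.9 and 33.9 CPM in KO2, and did not pass the test (edgeR log2 fold change -0.12, SE 0.15, adjusted p = 0.672). With the edited position unknown, reads summed over the gene are no check of the genotype labels. Library totals ranged from 17374615 to 31527014 estimated counts. KO1 replicate 2 and both KO2 libraries stood apart from the rest: COL1A1, a collagen of mesenchymal cells, was at 27540, 9226 and 14460 CPM in them, and at 7.65 to 387 CPM in the other 5 libraries. The 14 mesenchymal markers summed to 68600, 26800 and 39600 CPM in these 3 libraries and to 132 to 1880 CPM in the others. In KO against WT all 14 had positive fold changes, against 49.4% of all genes. DESeq2 called 11 of them higher, against 4.81% of all genes. The 15 pan-neuronal markers summed to 4710 to 7060 CPM in WT, to 5170, 1400 and 6060 CPM in KO1 and to 3880 and 2310 CPM in KO2. Of 10 progenitor markers, 9 had negative fold changes in KO against WT (median -0.89), against 50.6% of all genes. SOX3, PAX6, NOTCH1 and DLL1 lay below WT in every KO library, as did 6.16% of all genes. NES and FABP7, by contrast, lay above the WT range in KO1 replicates 1 and 3, as did 13.6% of all genes. The sum of the 10 was 4430 to 5060 CPM in WT and 3330 to 6010 CPM in KO. It includes VIM, at 1800 to 2400 CPM in WT and 5125 and 4760 CPM in KO1 replicate 2 and KO2 replicate 2. Of 7 astrocyte markers, 4 were positive and 3 negative (median 0.21), and their sum, 351 to 507 CPM in WT and 500 to 1060 CPM in KO, held 43.3 to 152 and 178 to 718 CPM of GJA1. The progenitor and astrocyte markers named here were picked because of their values. Sums over 7 epithelial markers were 20.8 to 88.3 CPM in WT and 44.1 to 780 CPM in KO, and over 5 endothelial markers, 1 of them under 1 CPM in every library, 3.22 to 4.25 and 5.79 to 96.8 CPM. The part of these differences in the results below was not tested. MAP2, a neuronal cytoskeletal protein, was present in all 8 libraries, at 780.5 to 1287 CPM in the other 5 libraries and at 159.5 to 715 CPM in the 3 rich in collagen RNA. In bulk RNA, fewer neurons and less RNA per neuron cannot be told apart. Fold changes are therefore also given for KO1 replicates 1 and 3 alone against WT. These 2 libraries were not free of marker differences: the epithelial markers summed to 559 and 44.1 CPM in them. In that comparison all 7 epithelial markers (median 1.5) and 7 of 14 mesenchymal markers (median -0.03) were positive, against 49.3% of all genes. Above WT in both libraries lay 3 of the 7 and 3 of the 14, against 13.6% of all genes, and 0 of either list lay below.

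Most of the postsynaptic genes had lower mean RNA in the knockouts, but none passed the edgeR test over all genes, and for 7 of the 35 no KO library overlapped the WT range. In KO against WT, 28 of the 35 log2 fold changes were negative, against 50.6% of all genes tested, and 7 were positive, against 49.4%. Their median was -0.33, against -0.01 over all genes. The 15 pan-neuronal markers had 13 negative fold changes and a median of -0.56, so lower values were not particular to the postsynaptic genes. With edgeR, 0 of the 35 genes passed an adjusted p of 0.05 in either direction, as did 0% of all 18614 genes, and the smallest adjusted p was 0.243. At an unadjusted p under 0.05, 2 genes were higher (CAMK2D and SLITRK6), against 11.5% of all genes, and 5 were lower (HOMER3, CAMK2A, CAMK2N1, CAMK2N2 and LRRTM2), against 6.45%. DESeq2 called SLITRK6 higher and CAMK2N1 lower, where it called 4.81% of 20873 genes higher and 1.15% lower. These calls depended on single libraries: both were lost without WT replicate 2, WT replicate 3, KO1 replicate 2 or either KO2 library, CAMK2N1 was lost without KO1 replicate 1, and 9 of the 35 were called without KO1 replicate 3, when 13.6% of all genes were. For HOMER1 and CAMK2D every KO library was above the WT range, a pattern seen in 6.29% of all genes. All 5 lay below all 3 for HOMER3, CAMK2A, NLGN2, LRRTM2 and SLITRK5, and 6.16% of all genes did so.

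**Figure D1:**
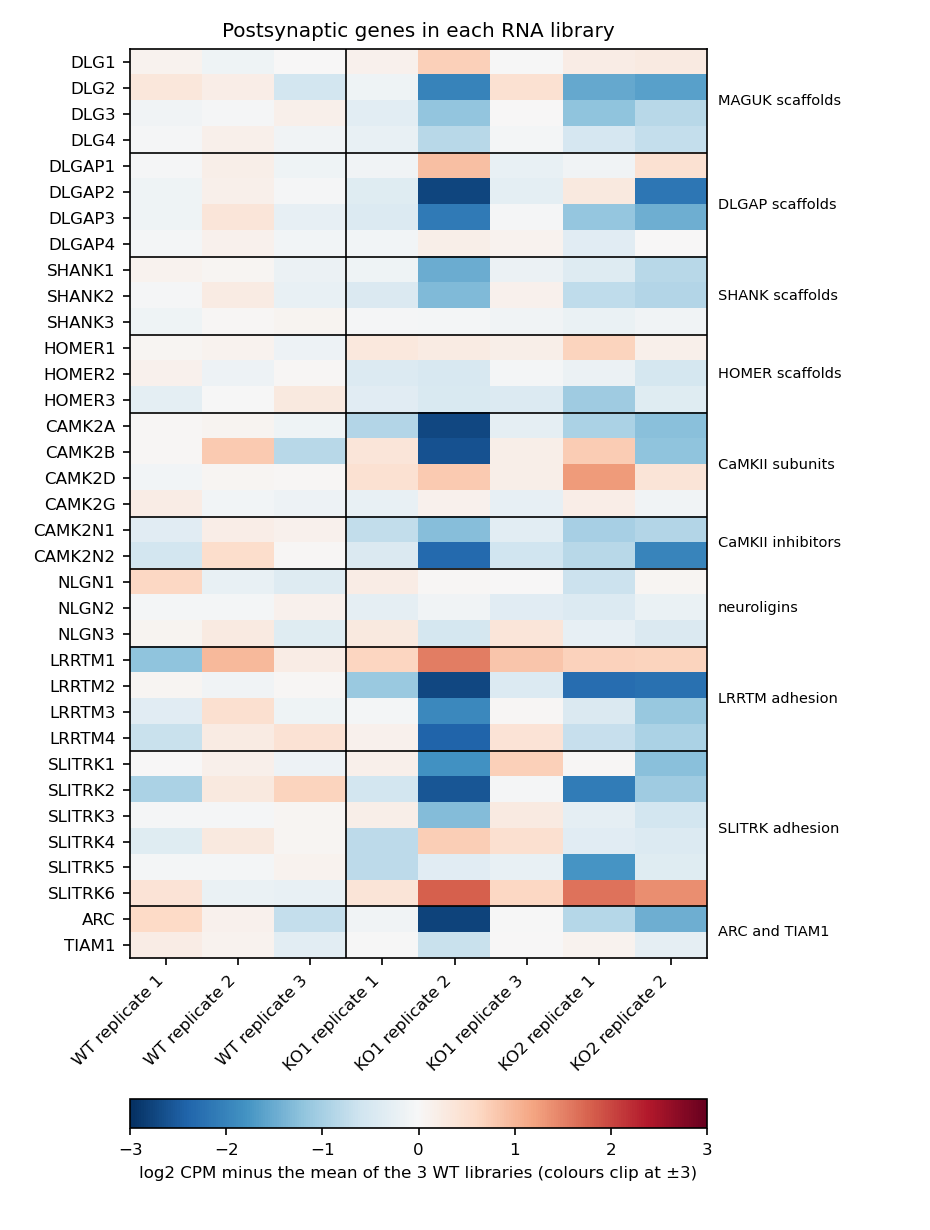
Colour gives each gene's log2 CPM in each of the 8 RNA libraries (columns) minus the mean of the 3 WT libraries, with the 35 genes (rows) grouped by role, and values beyond the colour bar take its end colour. Deep blue cells are concentrated in KO1 replicate 2, KO2 replicate 1 and KO2 replicate 2, in which 24, 22 and 24 genes lay below the WT range.

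The low values were unevenly spread over the KO libraries. In KO1 replicate 1, 14 of the 35 genes lay below the lowest WT library (40.0%, against 25.8% of all genes), and in KO1 replicate 3, 10 did (28.6%, against 23.2%). In KO1 replicate 2 the count was 24 (68.6%, against 41.4%), and in KO2 it was 22 and 24 (62.9% and 68.6%, against 37.1% and 36.8%). The genes' median log2 distance from the WT mean was -0.13, -0.84 and -0.01 in KO1 replicates 1, 2 and 3, with -0.40 and -0.55 for KO2. When KO1 replicates 1 and 3 alone were set against WT, 22 of 35 fold changes were negative (50.7% of all genes) and 13 positive (49.3%), with a median of -0.14 (0 over all genes). Of the 15 pan-neuronal markers 7 were negative there, with a median of 0.01. In that comparison edgeR and DESeq2 each called 0 of the 35, where DESeq2 called 0.921% of all genes higher and 0.616% lower. At an unadjusted edgeR p under 0.05 the counts were 1 higher and 4 lower, against 4.47% and 3.82% of 18755 genes. Here 5 genes lay above all WT libraries in both KO libraries (HOMER1, CAMK2D, NLGN3, SLITRK1 and SLITRK3), against 13.6% of all genes, and 7 lay below (DLGAP2, HOMER3, CAMK2A, CAMK2G, NLGN2, LRRTM2 and SLITRK5), against 12.5%.

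Among the MAGUK scaffolds, which bind receptor tails through PDZ domains, 3 of 4 had negative fold changes and none passed the test. DLG2 was at 43.7, 39.6 and 23.4 CPM in WT, at 31.2, 8.53 and 47.5 CPM in KO1 and at 11.8 and 11 CPM in KO2. The 3 libraries rich in collagen RNA were the low ones, and KO1 replicate 3 was the highest of all 8, so the groups overlapped. Its log2 fold change was -0.69 (SE 0.58, edgeR adjusted p = 0.506) over all libraries and 0.15 (SE 0.30) in KO1 replicates 1 and 3 alone. DLG3, a MAGUK encoded on the X chromosome, was at 77.2, 82.1 and 92.6 CPM in WT, at 67.3, 36.8 and 84.2 CPM in KO1 and at 36.2 and 46.9 CPM in KO2. The same 3 libraries were lowest, and the log2 fold change of -0.63 (SE 0.29, edgeR adjusted p = 0.290) became -0.14 (SE 0.14) without them. DLG4, which encodes the most studied MAGUK of excitatory synapses, ranged from 144 to 174 CPM in WT, with KO1 replicate 3 inside that range at 151 CPM and the other KO libraries between 86.9 and 133 CPM. Its log2 fold change was -0.44 (SE 0.19, edgeR adjusted p = 0.279), and -0.14 (SE 0.13) in KO1 replicates 1 and 3. DLG1 had a positive fold change, 0.28 (SE 0.17, edgeR adjusted p = 0.380), which was 0.06 (SE 0.12) in KO1 replicates 1 and 3.

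The DLGAP proteins link MAGUKs to SHANKs, which in turn link to HOMER and actin. DLGAP3 was at 22.9, 32.0 and 21.1 CPM in WT, at 18.6, 5.67 and 24.5 CPM in KO1 and at 11.1 and 9.02 CPM in KO2 (log2 fold change -0.88, SE 0.44, edgeR adjusted p = 0.312). KO1 replicate 3 lay inside the WT range and the 3 libraries rich in collagen RNA lay lowest, and without these 3 the fold change was -0.23 (SE 0.24). DLGAP4 differed little: the 3 WT libraries averaged 192 ± 14.0 CPM (SD, n = 3), the 5 KO libraries 190 ± 24.6 CPM (SD, n = 5). DLGAP1 had a fold change of 0.25 (SE 0.28, edgeR adjusted p = 0.619), which was -0.17 (SE 0.16) in KO1 replicates 1 and 3. DLGAP2 was the most weakly detected of the set, with 3 to 53 estimated counts per library, so its fold changes of -0.68 (SE 0.68) and, in KO1 replicates 1 and 3, -0.34 (SE 0.33) are imprecise.

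SHANK3 had the fold change nearest to 0 of the SHANK genes, -0.10 (SE 0.09), with a mean of 73.8 ± 5.52 CPM over WT (SD, n = 3) and of 68.7 ± 3.09 CPM over the knockouts (SD, n = 5). SHANK1 and SHANK2 had log2 fold changes of -0.53 (SE 0.29) and -0.59 (SE 0.30), with edgeR adjusted p of 0.336 and 0.319. SHANK1 was at 25.0, 52.9 and 38.8 CPM in the 3 libraries rich in collagen RNA, against 61.5 to 75.2 CPM in the other 5. The corresponding ranges for SHANK2 were 15 to 22.2 CPM and 27.9 to 45 CPM, so for both genes the collagen-rich libraries lay apart from the rest. KO1 replicate 1 was inside the WT range for SHANK1 and KO1 replicate 3 for SHANK2. These 2 KO1 libraries alone gave -0.16 (SE 0.12) for SHANK1, -0.14 (SE 0.22) for SHANK2 and -0.07 (SE 0.11) for SHANK3.

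The HOMER genes, whose proteins cross-link SHANKs to metabotropic glutamate and calcium-release receptors, did not share a direction. HOMER1 was at 26.3, 26.9 and 22.4 CPM in WT, at 31.4, 29.6 and 28.2 CPM in KO1 and at 40.1 and 28.1 CPM in KO2. Every KO library lay above every WT library, and the log2 fold change was 0.32 (SE 0.15, edgeR adjusted p = 0.298). HOMER3 was at 40.5, 49.7 and 61.2 CPM in WT, at 39.6, 36 and 37.4 CPM in KO1 and at 23.8 and 38.8 CPM in KO2. Here every KO library lay below every WT library (log2 fold change -0.52, SE 0.20, edgeR adjusted p = 0.256), although WT replicate 1 and KO1 replicate 1 were nearly level. In KO1 replicates 1 and 3 alone the fold changes were 0.24 (SE 0.15) for HOMER1 and -0.39 (SE 0.19) for HOMER3. HOMER2 had a fold change of -0.33 (SE 0.15, edgeR adjusted p = 0.290) with overlapping groups, and -0.23 (SE 0.18) in KO1 replicates 1 and 3.

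The CaMKII subunits split as well. CAMK2A, the alpha subunit typical of mature excitatory neurons, was at 17.2, 17.8 and 15.4 CPM in WT, at 9.04, 2.47 and 13.8 CPM in KO1 and at 8.69 and 6.99 CPM in KO2. No KO library reached the WT range, and the mean over WT was 16.8 ± 1.23 CPM (SD, n = 3) against 8.2 ± 4.08 CPM over the knockouts (SD, n = 5). The log2 fold change was -1.03 (SE 0.44, edgeR adjusted p = 0.272, DESeq2 adjusted p = 0.170), and -0.55 (SE 0.23, edgeR adjusted p = 0.605) in KO1 replicates 1 and 3. CAMK2D, the delta subunit, which is widely expressed outside the brain, was at 58.7, 64.2 and 63.5 CPM in WT, at 85.7, 106 and 70.7 CPM in KO1 and at 151 and 81.5 CPM in KO2. The groups did not overlap (log2 fold change 0.67, SE 0.25, edgeR adjusted p = 0.248), and KO1 replicates 1 and 3 gave 0.33 (SE 0.12, edgeR adjusted p = 0.585). CAMK2B varied more within groups than between them, from 8.74 to 26.9 CPM in WT and from 2.47 to 26.6 CPM in KO. CAMK2G was close to level, with a fold change of -0.05 (SE 0.15). KO1 replicates 1 and 3 gave 0.13 (SE 0.44) for CAMK2B and -0.25 (SE 0.14) for CAMK2G.

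Both inhibitors of CaMKII had lower means in the knockouts. CAMK2N1 was at 44.4, 65.0 and 62.2 CPM in WT, at 33.9, 23.4 and 45.1 CPM in KO1 and at 28.1 and 30.4 CPM in KO2. KO1 replicate 3 lay just above WT replicate 1 and the other 4 KO libraries lay below all of WT. It fell by DESeq2 (log2 fold change -0.82, SE 0.26, adjusted p = 0.0348), but it did not pass with edgeR (-0.83, SE 0.22, adjusted p = 0.243). The authors' deposited table lists -0.82 and an adjusted p of 0.0346. In KO1 replicates 1 and 3 the fold change was -0.53 (SE 0.22, edgeR adjusted p = 0.602, DESeq2 adjusted p = 0.441). CAMK2N2 was at 9.44, 20.1 and 14.4 CPM in WT, at 10.3, 2.69 and 9.25 CPM in KO1 and at 7.84 and 3.47 CPM in KO2. Its fold change of -1.12 (SE 0.47, edgeR adjusted p = 0.272) came from groups that overlapped only through WT replicate 1 and KO1 replicate 1. It was -0.58 (SE 0.34) without the collagen-rich libraries.

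**Figure D2:**
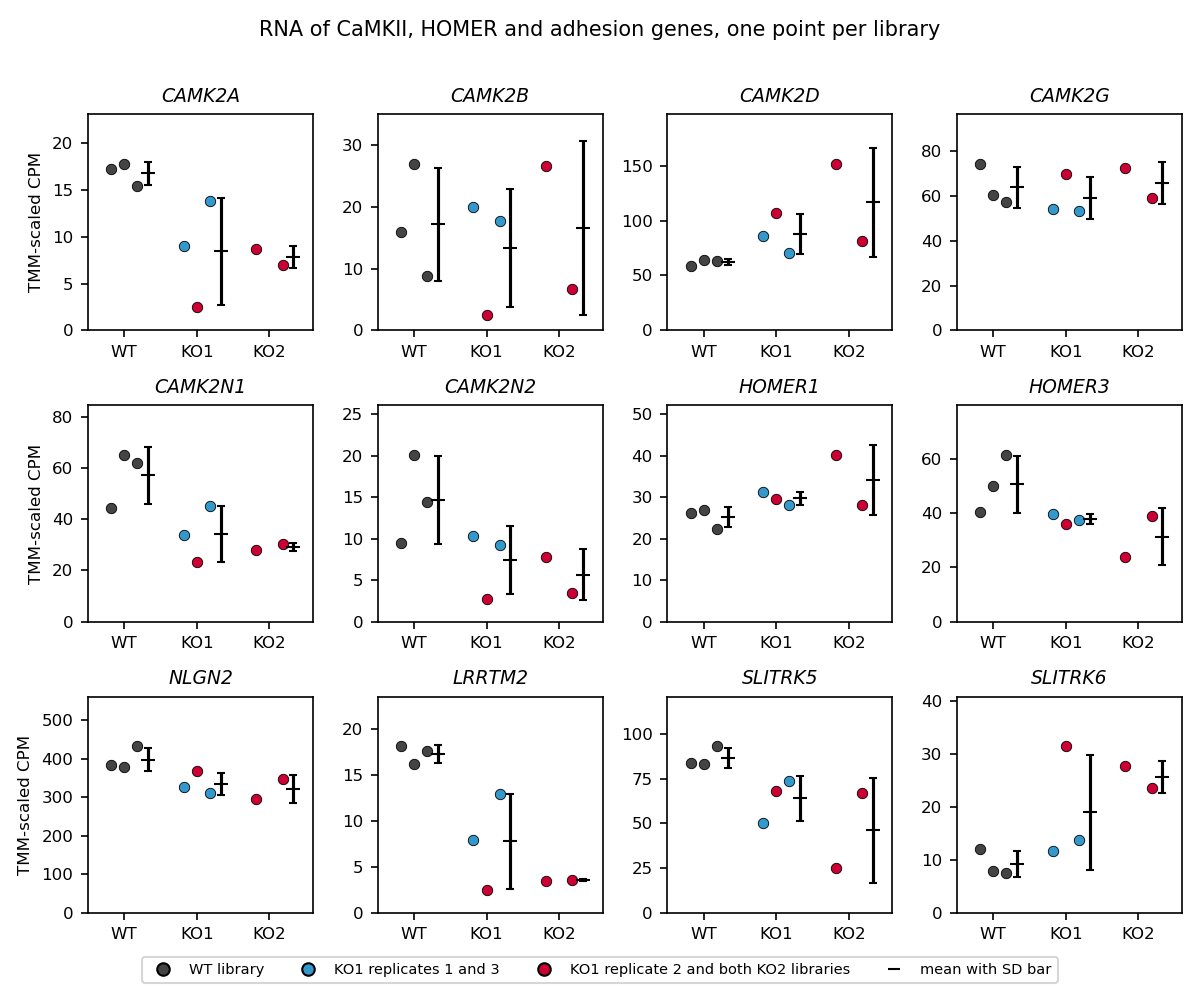
TMM-scaled CPM (vertical axis, from 0) of 12 genes in WT, KO1 and KO2, with 1 point per library and the mean with an SD bar beside each group (3 WT, 3 KO1 and 2 KO2 libraries). Red points are the 3 libraries rich in collagen RNA. In CAMK2A, LRRTM2 and SLITRK5 every KO point lies below every WT point, and in SLITRK6 the red points, 23.6 to 31.5 CPM, lie above all others.

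Among the neuroligins, NLGN2, the member found at inhibitory synapses, was at 382, 377 and 431 CPM in WT, at 327, 366 and 311 CPM in KO1 and at 296 and 347 CPM in KO2. All KO libraries lay below WT by a small margin, with a log2 fold change of -0.27 (SE 0.12, edgeR adjusted p = 0.282). The fold change was of like size in KO1 replicates 1 and 3, at -0.31 (SE 0.11, edgeR adjusted p = 0.561), so the low values were not limited to the collagen-rich libraries. NLGN1, the neuroligin of excitatory synapses, had a fold change of -0.11 (SE 0.27), and 0.05 (SE 0.31) in KO1 replicates 1 and 3. For NLGN3 it was -0.09 (SE 0.26), with 88.1 and 93.1 CPM in KO1 replicates 1 and 3 and 49.8 to 60.7 CPM in the other KO libraries. The former pair alone gave 0.30 (SE 0.19).

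LRRTM2, a neurexin receptor of excitatory synapses, had the lowest fold change of the 35 genes. It was at 18.1, 16.2 and 17.6 CPM in WT, at 7.88, 2.52 and 12.9 CPM in KO1 and at 3.45 and 3.62 CPM in KO2. Every KO library lay below every WT library, and the 3 libraries rich in collagen RNA lay lowest. The mean was 2.85-fold lower in KO (6.07 ± 4.34 CPM, SD, n = 5, against 17.3 ± 0.999 CPM, SD, n = 3), with a log2 fold change of -1.50 (SE 0.51, edgeR adjusted p = 0.246, DESeq2 adjusted p = 0.0659). KO1 replicates 1 and 3 gave -0.73 (SE 0.25, edgeR adjusted p = 0.559, DESeq2 adjusted p = 0.199). LRRTM3 and LRRTM4 had fold changes of -0.59 (SE 0.45) and -0.49 (SE 0.58), and their lowest library was KO1 replicate 2, at 1.91 and 1.35 CPM. In KO1 replicates 1 and 3 they gave -0.06 (SE 0.31) and 0.21 (SE 0.36). LRRTM1 had a fold change of 0.67 (SE 0.48, edgeR adjusted p = 0.443) and varied from 1.3 to 6.21 CPM within WT alone, with 0.49 (SE 0.60) in KO1 replicates 1 and 3.

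The SLITRK genes held the highest fold change of the set and some of the lowest. SLITRK6 was at 12.0, 7.85 and 7.62 CPM in WT, at 11.7, 31.5 and 13.8 CPM in KO1 and at 27.9 and 23.6 CPM in KO2. The 3 libraries rich in collagen RNA were high and the other 2 KO libraries lay close to WT replicate 1. It rose by DESeq2 (log2 fold change 1.26, SE 0.40, adjusted p = 0.0343), but did not pass with edgeR (1.24, SE 0.38, adjusted p = 0.243). The authors' deposited table lists 1.26 with adjusted p = 0.0342. KO1 replicates 1 and 3 gave 0.48 (SE 0.27, edgeR adjusted p = 0.692, DESeq2 adjusted p = 0.711).

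SLITRK5, whose protein is found at postsynaptic sites of cortical and striatal neurons, was at 83.5, 83.4 and 92.9 CPM in WT, at 49.9, 67.8 and 73.9 CPM in KO1 and at 25.3 and 66.7 CPM in KO2. Every KO library lay below every WT library (log2 fold change -0.61, SE 0.31, edgeR adjusted p = 0.313), and KO1 replicates 1 and 3 gave -0.48 (SE 0.18, edgeR adjusted p = 0.594). SLITRK2 was at 10.0, 23.6 and 30.7 CPM in WT, at 13.3, 3.20 and 18.8 CPM in KO1 and at 4.48 and 9.17 CPM in KO2 (log2 fold change -1.13, SE 0.59, edgeR adjusted p = 0.327). WT replicate 1 lay among the KO libraries, and the fold change was -0.41 (SE 0.46) in KO1 replicates 1 and 3. SLITRK1 and SLITRK3 lay above the WT range in KO1 replicates 1 and 3 (SLITRK1 at 31.23 and 45.6 CPM, SLITRK3 at 19.9 and 21.2 CPM). They lay below it in KO1 replicate 2 and KO2 replicate 2, and SLITRK3 also in KO2 replicate 1. For SLITRK1, KO1 replicate 1 was nearly level with WT replicate 2, at 31.2 CPM. The fold changes of SLITRK1 and SLITRK3 were -0.16 (SE 0.52) and -0.23 (SE 0.33) over all libraries, but 0.46 (SE 0.20) and 0.23 (SE 0.15) in KO1 replicates 1 and 3. SLITRK4 had fold changes of 0.03 (SE 0.37) and -0.03 (SE 0.40).

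ARC, an activity-induced protein that drives receptor endocytosis, had 10 to 164 estimated counts per library and a fold change of -0.86 (SE 0.60, edgeR adjusted p = 0.436), or -0.16 (SE 0.41) in KO1 replicates 1 and 3. TIAM1, an activator of the GTPase RAC in dendritic spines, had a fold change of -0.15 (SE 0.20, edgeR adjusted p = 0.684), or -0.01 (SE 0.18) in those 2 libraries.

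**Figure D3:**
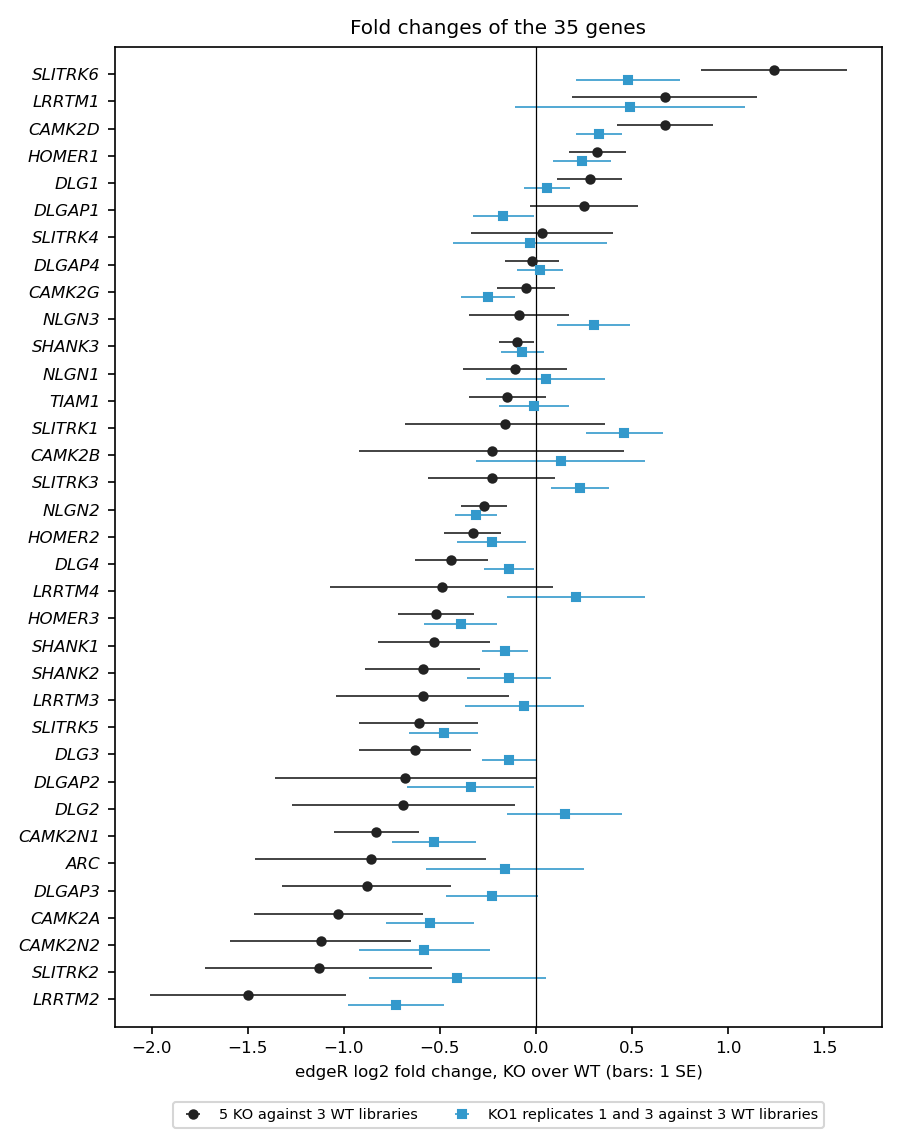
edgeR log2 fold changes of KO over WT (horizontal axis, bars are 1 SE) for the 35 genes (rows, sorted by the comparison of all libraries). Black circles use all 5 KO libraries and blue squares use KO1 replicates 1 and 3, both against the same 3 WT libraries. The blue squares lie nearer to 0 for most genes at either end, as for LRRTM2 (-1.50 and -0.73) and SLITRK6 (1.24 and 0.48).

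Each line was also set against WT, with the 3 WT libraries shared by both comparisons. In KO1 against WT, 24 of 35 fold changes were negative with a median of -0.29 (49.5% of all genes were negative and 50.5% positive). There edgeR and DESeq2 each called 0 of the 35, where DESeq2 called 0.664% of all genes higher and 0.201% lower. At an unadjusted edgeR p under 0.05 there was 1 higher and 1 lower gene, against 5.62% and 2.44% of 19440 genes. In KO2 against WT, 28 were negative with a median of -0.48 (52.1% of all genes were negative and 47.9% positive). Here edgeR called 0 of the 35 (0% of all genes), with 2 higher and 8 lower at an unadjusted p under 0.05, against 10.6% and 7.78%, and DESeq2 called LRRTM2 lower (log2 fold change -2.27, adjusted p = 0.00836), against 0.995% of all genes called lower and 3.36% higher. The edgeR count rested on KO1 replicate 2, which is in neither group of this comparison but shares the fit. Without it, 19357 genes were tested and edgeR called 11 of the 35 in KO2 against WT: CAMK2D and SLITRK6 were higher, where 10.4% of all genes were called higher, and DLG2, DLG3, DLG4, DLGAP3, SHANK1, SHANK2, CAMK2A, CAMK2N1 and LRRTM2 were lower, where 6.25% were called lower. LRRTM2 then had a log2 fold change of -2.28 (adjusted p = 0.00509), DLG2 of -1.64 (adjusted p = 0.0193), DLG3 of -1.0 (adjusted p = 0.0152), CAMK2N1 of -0.96 (adjusted p = 0.0300), SLITRK6 of 1.5 (adjusted p = 0.0106) and CAMK2D of 0.91 (adjusted p = 0.0441). Both KO2 libraries were rich in collagen RNA, so the line and that difference cannot be told apart in KO2.

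The difference between the lines was tested directly in KO2 against KO1. With all libraries edgeR called 0 of the 35 and 0% of all genes, none of the 35 had an unadjusted p under 0.05 (1.42% of all genes were higher and 0.818% lower), and DESeq2 called 0 (0.0182% of all genes were called higher and 0.0228% lower). Of the 35 fold changes 28 were negative, against 54.1% of all genes, and 7 positive, against 45.9%. Without KO1 replicate 2, edgeR called 2 of the 35, both lower in KO2, where it called 1.19% of all genes lower and 3.76% higher: DLG2 (log2 fold change -1.78, adjusted p = 0.0377) and LRRTM2 (-1.54, adjusted p = 0.0334). That comparison sets 2 collagen-rich KO2 libraries against the 2 KO1 libraries that were not.

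H3K27me3 peaks were found at the starts of a minority of the postsynaptic genes, and each gene with such a peak in the WT list also had one in the KO list. Each genotype has 1 peak list, so these are descriptions with no replicate check. Within 2 kb of a start, 9 of the 35 genes had a peak in the WT list (25.7%, against 15.4% of 18806 protein-coding genes and 9.65% of all 36756 genes with a position). The KO list had a peak at 13 (37.1%, against 15.9% and 10.0%). The 9 genes in both lists (25.7%, against 13.7% of protein-coding genes and 8.53% of all) were DLGAP2, DLGAP3, DLGAP4, SHANK2, CAMK2B, CAMK2N1, CAMK2N2, LRRTM1 and SLITRK1. SLITRK2, SLITRK3, ARC and TIAM1 had a peak in the KO list alone (11.4%, against 2.25% of protein-coding genes and 1.49% of all), and 0 of the 35 in the WT list alone (against 1.73% and 1.12%). The KO alignment for H3K27me3 held 37696481 tags and the WT alignment 22448528, and the part of this depth in the KO-only peaks was not tested. The shares are not adjusted for how many starts a gene has, and for 7 genes without a strand in the reference, among them DLGAP2, DLGAP3, SHANK2, CAMK2N1 and ARC, either end of the gene counted as a start.

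Among the genes in both lists, the strongest peak at a start differed widely in length, from 398 bp (4.87-fold enrichment) at SLITRK1 in WT to 6042 bp at SHANK2 in KO. At CAMK2N2, the WT peak ran over chr3:184259530-184263501, with 12.0-fold enrichment over control at its summit (the authors' value, as for every peak here), and so covered the whole promoter printed above and part of the gene. In the KO list this stretch held 3 separate peaks, of 5.56-fold, 9.92-fold and 6.59-fold. The second ended at position 184261556, by the start, and the last began at 184261633, so a short stretch of the printed promoter lay under no KO peak. In all, 92.6% and 93.7% of the short gene lay under H3K27me3 in WT and KO. SHANK2 had a peak of 3436 bp and 15.5-fold across its start in WT and of 6042 bp and 10.4-fold in KO. For DLGAP2 the peak across the start measured 5249 bp in WT (15.1-fold) and 5154 bp in KO (10.4-fold). DLGAP4 had peaks of 4745 bp and 4205 bp, and CAMK2B of 4132 bp and 4533 bp. Folds from different lists can show neither a change in the mark nor its absence, because each list was called on its own.

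Of the KO-only peaks, that of SLITRK2 was the longest. SLITRK2 carried a peak of 2951 bp (chrX:145818023-145820973, 5.20-fold) beginning 194 bp from its start and therefore just past the end of the printed promoter, followed by another of 898 bp, and the nearest WT peak was 4543 kb away. SLITRK3 had a peak of 330 bp (3.57-fold) 1333 bp from a start, and ARC a peak of 330 bp (3.60-fold, -log10 q of 4.24) 379 bp from an end of the gene. TIAM1 had a peak of 703 bp (4.98-fold) 1233 bp from its start, and its nearest WT peak was 215 kb away inside the same gene. Over the whole gene, 12 of the 35 had a peak in the WT list (against 10.1% of all genes) and 16 in the KO list (against 10.3%). All 35 are protein-coding, and the share over protein-coding genes was not computed for whole genes. These shares are also not adjusted for gene length. SHANK1 and SHANK3 had peaks inside the gene in both lists but at no start. SHANK1 held the highest enrichment at any of the 35 genes, 17.0-fold in WT, with 12.0-fold in KO. SLITRK5 had 1 peak inside the gene, in the KO list alone (492 bp, 4.40-fold).

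**Figure D4:**
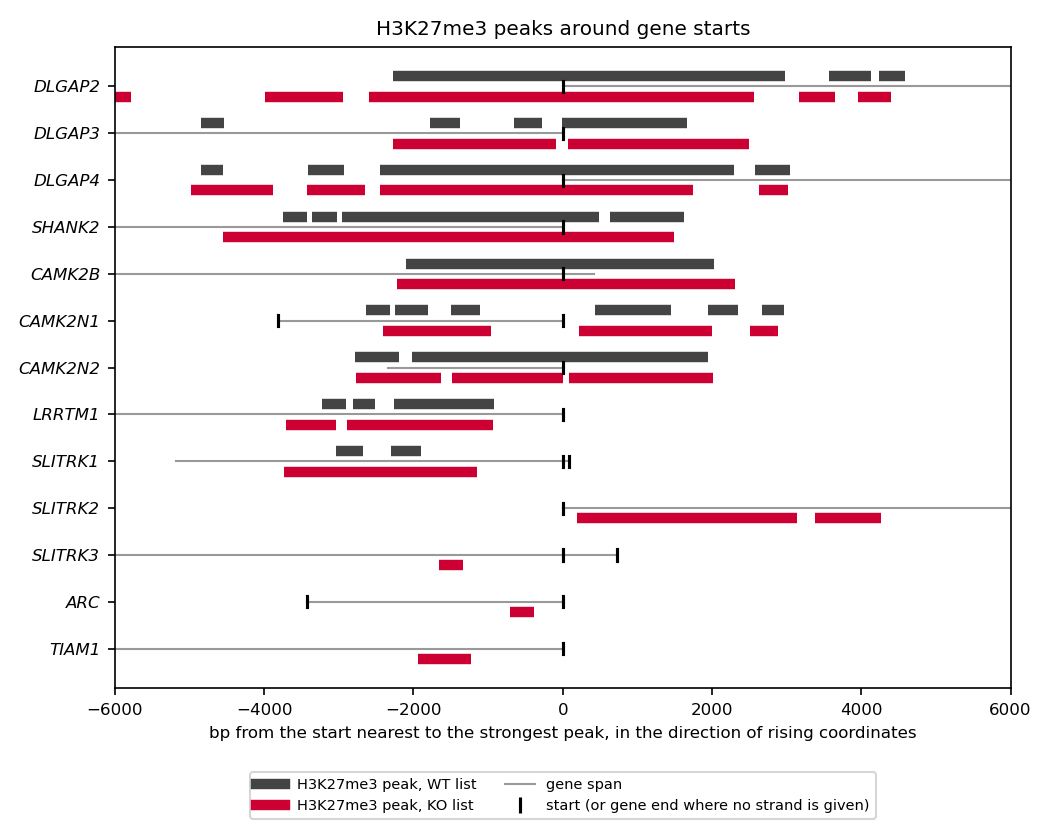
H3K27me3 peaks within 6 kb of a start for the 13 genes with a peak within 2 kb of a start in either list (rows), as bars along the distance in bp from the start nearest to the strongest peak, in the direction of rising coordinates. Grey bars are the WT list and red bars the KO list, and a thin line is the gene. The 9 upper genes have both colours and the 4 lower ones, SLITRK2, SLITRK3, ARC and TIAM1, have red alone.

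RNA and H3K27me3 were then set side by side. In KO against WT, the 4 genes with a KO-only peak all had negative fold changes with a median of -0.55, and 67.5% of the 388 genes tested with a KO-only peak at a start were negative, with a median of -0.26. Of the 9 genes with a peak in both lists, 8 were negative with a median of -0.59, whereas the 2126 genes of this class had a median of 0.28 and 39.2% were negative. The 22 genes with no peak at a start had 16 negative values and a median of -0.30, against -0.01 over the class. In KO1 replicates 1 and 3 alone, the medians of the 3 classes in the same order were -0.09, -0.14 and -0.10, against -0.10, 0 and 0 over all genes of each class. The lowest and the highest fold changes, of LRRTM2 and SLITRK6, were in genes with no H3K27me3 peak over the gene in either list.

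H3K36me3 peaks overlapped 14 of the 35 genes in the WT list (40%, against 35.7% of protein-coding genes and 19.9% of all genes). In the KO list they overlapped 3 (8.57%, against 19.5% and 10.5%). The KO list was shorter as a whole, with 8937 peaks against 30144, although its alignment held more tags (44401553 against 22510003). The 3 genes in the KO list, DLG4, DLGAP4 and SLITRK5, were also in the WT list. DLG4 had 9 peaks over 17.8% of the gene in WT and 2 peaks over 1.56% in KO, and DLGAP4 had 11 and 4 peaks. NLGN2 had 6 peaks over 15.8% of the gene in WT and CAMK2G had 9 peaks over 6.74%, and neither gene had any in KO. DLGAP4 and SHANK2 carried H3K27me3 at a start and H3K36me3 over the gene in the WT lists, and DLGAP4 alone did so in the KO lists.

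Genes of the surrounding pathway were read from the same fit of KO against WT, in which 50.6% of all genes were negative, 11.5% were higher and 6.45% lower at an unadjusted edgeR p under 0.05, and DESeq2 called 4.81% higher and 1.15% lower. Of 12 presynaptic partners tested (neurexins, receptor phosphatases, glypican, cerebellins and pentraxins), 8 had negative fold changes with a median of -0.33, 0 passed with edgeR or DESeq2, and 0 were higher and 3 lower at an unadjusted edgeR p under 0.05. In KO1 replicates 1 and 3 the median was -0.26, again with 8 negative. The lowest of these p-values were of PTPRF (log2 fold change -0.40, SE 0.13, edgeR adjusted p = 0.243), a receptor phosphatase, NRXN2 (-0.65, SE 0.23, edgeR adjusted p = 0.248), a neurexin, and NPTXR (-0.51, SE 0.20, edgeR adjusted p = 0.267), the neuronal pentraxin receptor. PTPRF was at 408, 290.5 and 374 CPM in WT and at 255 to 286 CPM in all 5 KO libraries. These lay below WT, a pattern seen in 6.16% of all genes.

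Of 24 other synaptic adhesion genes, 14 were negative with a median of -0.07 (13 and -0.05 in KO1 replicates 1 and 3). With edgeR 0 passed, and 2 were higher and 3 lower at an unadjusted p under 0.05. DESeq2 called 2, both higher. ADGRL3, a latrophilin, had a log2 fold change of 1.11 (DESeq2 adjusted p = 0.0117), with 46.6 to 94.7 CPM in WT, 124 and 126 CPM in KO1 replicates 1 and 3 and 143 to 195 CPM in the other KO libraries. FLRT2, a ligand of latrophilins, had 3.77 (DESeq2 adjusted p = 0.00224), with 16.4 to 26.7 CPM in WT, 43.2 and 42.6 CPM in KO1 replicates 1 and 3 and 124 to 798 CPM in the collagen-rich libraries. Both genes lay above WT in every KO library, as did 6.29% of all genes, and 2 of the 24 lay below (6.16%). FLRT2 was also called by DESeq2 in KO1 replicates 1 and 3 alone (log2 fold change 0.96, adjusted p = 0.00988), where 0.921% of all genes were called higher. There 3 of the 24 were higher and 1 lower at an unadjusted edgeR p under 0.05, against 4.47% and 3.82% of all genes. ADGRB2, an adhesion receptor of the BAI family, had -0.61 (SE 0.21, edgeR adjusted p = 0.247).

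Of 24 other genes of the postsynaptic density, 16 were negative with a median of -0.22, but in KO1 replicates 1 and 3 only 12 were, with a median of 0.01. With edgeR 0 passed, and 2 were higher and 4 lower at an unadjusted p under 0.05. DESeq2 called 1, SYNPO, an actin-associated protein of the spine apparatus, as higher (log2 fold change 4.47, adjusted p = 0.00323). SYNPO was at 2.16 to 11.4 CPM in WT, at 11.8 and 4.41 CPM in KO1 replicates 1 and 3 and at 343, 113 and 269 CPM in KO1 replicate 2 and KO2 replicates 1 and 2, so its difference was carried by the collagen-rich libraries. SIPA1L1, a regulator of RAP GTPases in spines, had 1.20 (SE 0.42, edgeR adjusted p = 0.247), and IQSEC1, an exchange factor for ARF GTPases, had -0.27 (SE 0.10, edgeR adjusted p = 0.253). In KO1 replicates 1 and 3 alone, DESeq2 called 1 of the 24 lower and 0 higher, against 0.616% and 0.921% of all genes. At an unadjusted edgeR p under 0.05, 3 were lower and 0 higher there, against 3.82% and 4.47%.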

How the data were processed

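The 35 genes, the gene lists and the naming of libraries rich in collagen RNA were chosen with earlier results of these data known. Estimated counts by gene symbol were deposited for RNA, made by the authors with Salmon 1.1.0 on GRCh38, per the submitters' processing notes. A second deposited table (DESeq2 1.26.0, per those notes) compares genotypes and gives log2 fold changes with standard errors, a Wald score, p-values and adjusted p-values. ChIP reads were aligned by the authors (Bowtie2 2.4.1, per the notes), and narrow peaks came from MACS2 2.2.7.1 with q 0.01 on 1 treatment and 1 control alignment, per the file headers. The deposited lists give the pileup signal, the fold ratio over control and the -log10 q-value. The control is named input in the titles and normal rabbit IgG in its antibody label, and both KO lines name 1 shared KO list.

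Estimated counts were rounded and tested over all genes with edgeR 4.0.16 in R 4.3.3 (filterByExpr, TMM, quasi-likelihood F-test, Benjamini-Hochberg, threshold 0.05), in a fit of genotype and a fit of 3 groups. The SE is the fold change divided by the root of F. DESeq2 1.42.0 was the comparison tool. The edgeR script was tested on simulated counts drawn independently for each gene. These held no shared difference of the collagen-rich libraries, so they do not show how the test behaves on these data. Peaks were assigned at 1 bp of overlap or more, to 2 kb around a start or to the gene span, with RefSeq GRCh38.p14 positions. CPM values are not divided by length, so levels are not compared between genes. Named genes were the 35, KDM6A, COL1A1, MAP2 and, from each of 4 related lists, the 3 lowest edgeR p-values in KO against WT and any gene called by DESeq2. The progenitor and astrocyte markers were named outside this rule, because of their values. Alternatives were RLE scaling, no filter, DESeq2, a replicate block, each library left out, a mean of line contrasts and other peak rules. Leaving out the 3 collagen-rich libraries, and DESeq2 with libraries left out, were added after seeing the data. Raw reads were not analysed here.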

Additional observations from a re-analysis of the deposited data

Results flagged for a closer look

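Among the 5 KO libraries, 3 of the 35 genes had 1 library far from the other 4, by a gap of over 0.71 of the range in CPM. The share over all genes was not computed, so this count describes these genes only. HOMER1 was at 40.1 CPM in KO2 replicate 1, and the next highest KO library was at 31.4 CPM. HOMER3 was at 23.8 CPM in the same library, and the next lowest was at 36 CPM. LRRTM1 was at 9.09 CPM in KO1 replicate 2, and the next highest was at 5.58 CPM. Chance alone marks about 1 in 20 such groups if values are normally distributed. HOMER1 stayed above WT and HOMER3 below WT in each of the other KO libraries.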

How the results depend on the processing

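The edgeR count of 0 genes called in KO against WT was the same under every alternative run with edgeR. Each of these runs also called 0% of all genes, so the count says nothing particular about the 35. The median fold change of the 35 genes stayed negative throughout, from -0.50 without KO1 replicate 3 to -0.28 without KO1 replicate 2 or KO2 replicate 2, and was -0.14 without the 3 collagen-rich libraries. With a replicate block it was -0.45, and edgeR again called 0% of all genes. After subtraction of each line's mean, same-numbered libraries correlated at -0.32 to 0.27 and others at -0.27 to 0.34. Whether the numbers pair the libraries is not decided by this. No gene was called with or without the block, and subtracting the mean makes the 2 KO2 libraries mirror each other. DESeq2 called 2 genes in KO against WT and 1 in KO2 against WT. With 1 library left out, DESeq2 called 0 to 9 genes in KO against WT, the 9 without KO1 replicate 3 (13.6% of all genes were called then), 1 without KO1 replicate 1, 2 without WT replicate 1, and 0 without WT replicate 2, WT replicate 3, KO1 replicate 2, or either KO2 library. It called 0 without the 3 collagen-rich libraries. Leave-one-out edgeR counts ran from 0 to 11 in KO2 against WT and from 0 to 2 in KO2 against KO1. The cause was not tested, but fewer libraries also change the estimated spread.

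Fold changes near 0 changed sign when 1 library was left out: CAMK2G ran from -0.13 to 0.07, NLGN1 from -0.30 to 0.26, SLITRK4 from -0.20 to 0.18, DLGAP4 from -0.06 to 0.07, CAMK2B from -0.55 to 0.25, NLGN3 from -0.26 to 0.05 and SLITRK1 from -0.50 to 0.06. In KO1 against WT, DLG2 ran from -0.84 to 0.14, and in KO2 against KO1, CAMK2N1 ran from -0.42 to 0.03 and CAMK2D from -0.08 to 0.76. The mean of both line contrasts gave -0.07 for SLITRK4. Without the 3 collagen-rich libraries the sign changed for DLG2 (0.15), DLGAP1 (-0.17), DLGAP4 (0.02), CAMK2B (0.13), NLGN1 (0.05), NLGN3 (0.30), LRRTM4 (0.21), SLITRK1 (0.46), SLITRK3 (0.23) and SLITRK4 (-0.03). In the line contrasts, fold changes under alternatives were run for DLG2, DLG3, CAMK2D, CAMK2N1, LRRTM2 and SLITRK6, and not run for the other genes.

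Counts of genes with H3K27me3 at a start ran from 8 to 12 in WT and from 10 to 16 in KO over the other windows and thresholds. H3K36me3 peaks with a -log10 q of at least 5 overlapped 9 genes in WT, and an overlap of at least 500 bp left 7 in WT and 0 in KO, whose longest peak over these genes was shorter than that. Depth limits the weakly detected genes, above all DLGAP2 and ARC.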

Other observations

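Immediate early genes, which neurons transcribe within minutes of activity, mostly had positive fold changes in the knockouts, but not in every KO library. The 14 listed summed to 204, 214 and 261 CPM in WT, to 404, 189 and 149 CPM in KO1 and to 580 and 280 CPM in KO2. Their sums in KO1 replicates 2 and 3 thus lay below every WT library. Of 13 tested, 12 had positive fold changes in KO against WT (49.4% of all genes did), with a median of 0.93, against -0.01 over all genes. In KO1 replicates 1 and 3 alone, 10 were positive with a median of 0.39. With edgeR 0 passed, and 3 were higher at an unadjusted p under 0.05 (11.5% of all genes were). DESeq2 called 2 higher, where it called 4.81% of all genes higher. FOSB, a subunit of the AP-1 transcription factor, was at 0.527, 0.617 and 0.322 CPM in WT, at 3.89, 2.36 and 0.793 CPM in KO1 and at 7.21 and 2.87 CPM in KO2 (log2 fold change 2.80, DESeq2 adjusted p = 0.00225). EGR2, a zinc finger transcription factor, was at 0.486, 0.206 and 0.161 CPM in WT, at 2.17, 1.12 and 0.558 CPM in KO1 and at 5.82 and 1.73 CPM in KO2 (log2 fold change 3.00, DESeq2 adjusted p = 0.00798). Every KO library lay above every WT library for both genes, a pattern seen in 6.29% of all genes. KO1 replicates 1 and 3 alone gave edgeR fold changes of 2.21 (SE 0.71, adjusted p = 0.537) and 2.2 (SE 0.76, adjusted p = 0.559). JUNB, another AP-1 subunit, had 1.18 (SE 0.51, edgeR adjusted p = 0.277), with KO1 replicate 3 below the WT range at 6.61 CPM. ARC, which belongs to the same class of genes, had a fold change of -0.86 (SE 0.60, edgeR adjusted p = 0.436). FOSB and EGR2 are weakly expressed here, which limits the precision of their fold changes.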
